A study of Mus musculus with 2 samples.

Results

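The cells described here are the CD4 T cells of mouse colorectal tumors, regulatory cells included, in a single-cell RNA study of telmisartan, a drug that blocks the angiotensin II type 1 receptor. Female C57BL/6 mice aged 6 to 8 weeks carried MC38 tumors, a mouse colon cancer line, under the skin. They received vehicle or 5 mg/kg telmisartan by mouth each day from implantation until harvest on day 13. Live CD45+ cells sorted from 5 mice per group were pooled, labelled with Sample Tags (antibodies that carry a DNA barcode) and captured together on 1 BD Rhapsody cartridge, which counts unique molecular identifiers (UMIs) per gene and cell.

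The capture held 20726 putative cells, of which 9911 could be given to 1 group and passed the limits on genes and mitochondrial UMIs. Of these, 66 met the rule for CD4 T cells. They had at least 2 UMIs of T cell receptor complex genes, fewer than 10 UMIs of the macrophage complement genes C1qa, C1qb and C1qc, at least 1 UMI of Cd4 or Foxp3, and none of Cd8a or Cd8b1. Since members were chosen by these UMI values, the levels of those genes are descriptions and not findings. The control pool gave 30 members with 198833 UMIs in all and a median of 4809 UMIs per cell. The telmisartan pool gave 36 members with 210475 UMIs and a median of 4076.

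CD4 T cells help other immune cells through contact and cytokines, and they also include the regulatory cells that hold responses back. Regulatory cells depend on the transcription factor Foxp3, and tumors often hold many of them beside helper cells that make interferon gamma. With a single pool in each group there is no replicate, so differences between pools were not tested, and every 95% interval below covers counting error only (exact Clopper-Pearson for shares, exact Poisson for sums and exact conditional binomial for ratios).

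The markers in the rule were spread over the members as follows, which describes the choice and does not check the label. Trac, the constant part of the T cell receptor alpha chain, had a UMI in 29 of 30 control and 31 of 36 telmisartan members. Cd3e, a signalling chain of the same receptor, had one in 25 and 30 members. The coreceptor gene Cd4 (chromosome 6, 124864692 to 124888221 on GRCm38) had one in 25 and 34. Genes of other immune cells had UMIs in members as well. The dendritic cell list had 484 UMIs in control and 725 in telmisartan members, led by H2-Ab1, with 250 and 382 of them in 1 cell of each pool. The NK cell list had 113 and 80, led by Tyrobp, which macrophages also express. B cell genes had 23 and 30, led by Ighm, and neutrophil genes 1 and 2. The genes with the most UMIs outside mitochondrial and ribosomal protein genes were Actb, Tmsb4x, B2m, Eef1a1, Tpt1, Actg1, Cfl1, Ptma, H2-D1, Srgn, Gapdh, Lyz2, H2-K1, Fth1 and Vim.

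How common the cells are, and how they divide between regulatory and other members, is the first question a tumor immunologist would put to such data. CD4 T cells made up 0.591% of kept control cells (30 of 5078, interval 0.399 to 0.842%). In the telmisartan pool they made up 0.745% (36 of 4833, 0.522 to 1.03%). CD8 T cells, taken with the same T cell and C1q limits, made up 0.650% of kept control cells (33 cells, 0.448 to 0.911%) and 1.47% of kept telmisartan cells (71 cells, 1.15 to 1.85%). The CD4 share of both T cell classes was lower in the telmisartan pool, at 33.6% (24.8 to 43.4%) against 47.6% (34.9 to 60.6%) in the control pool. Within the T cell limits, 1 cell in each pool carried both sets of markers, and 11 control and 14 telmisartan cells carried neither.

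Foxp3 (chromosome X, 7573644 to 7595245) is read here as the mark of regulatory cells. A Foxp3 UMI was present in 15 of 30 control members, 50% (31.3 to 68.7%). It was present in 13 of 36 telmisartan members, 36.1% (20.8 to 53.8%). Counted among all kept cells, members with Foxp3 were 0.295% (0.165 to 0.487%) in the control and 0.269% (0.143 to 0.460%) in the telmisartan pool. Counted among CD4 and CD8 T cells, they were 23.8% (15 of 63, 14.0 to 36.2%) and 12.1% (13 of 107, 6.63 to 19.9%). Members without it were 0.295% of kept control cells and 0.476% (0.302 to 0.713%) of kept telmisartan cells. Detection depends on depth, and after each cell was thinned to 500 UMIs the expected shares were 21.1% and 12.9%, with 0 members left out for depth. Because a Foxp3 UMI alone admits a cell, the share was also taken among members with a Cd4 UMI, where it was 40% (10 of 25) in the control and 32.4% (11 of 34) in the telmisartan pool. Members with Foxp3 carried a median of 3 Foxp3 UMIs in the control pool and 4 in the telmisartan pool.

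**Figure D1:**
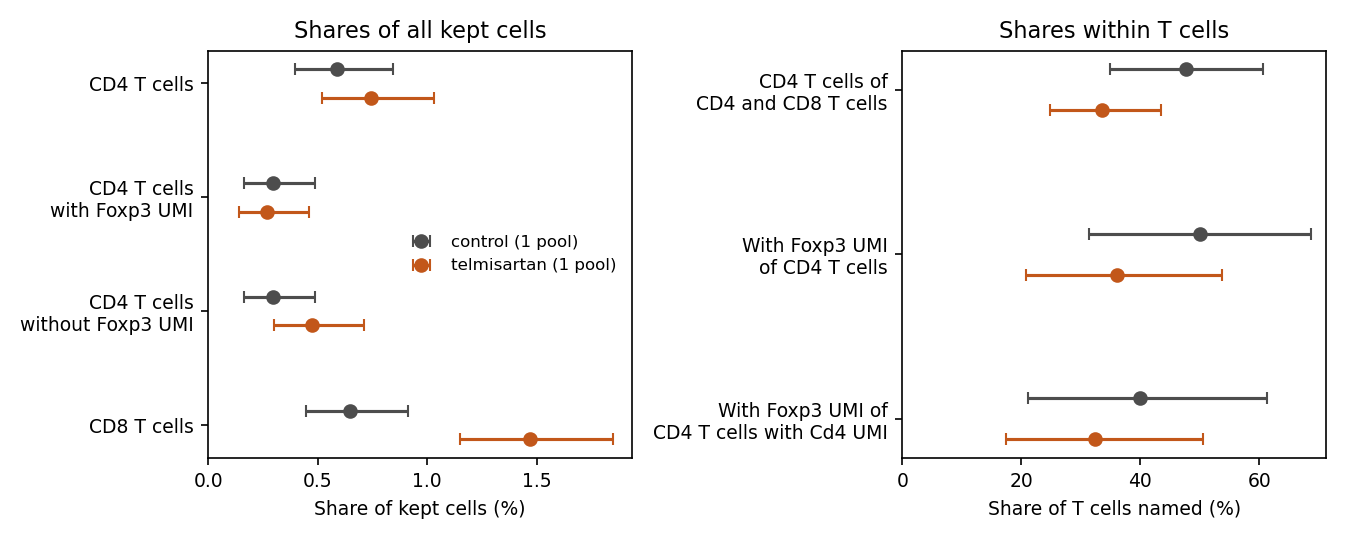
Shares of CD4 and CD8 T cells in percent of kept cells (left) and of the T cells named on the axis (right), for 1 control and 1 telmisartan pool. Points are shares and bars exact 95% Clopper-Pearson intervals; the CD8 share was 0.650% and 1.47%, while the share of members with a Foxp3 UMI was 0.295% and 0.269%.

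Members with a Foxp3 UMI were next set against members without one, inside each pool. The comparison asks which genes accompany Foxp3 in these tumors, and so what the regulatory cells are equipped to do. A cell without a Foxp3 UMI may still carry the transcript, since shallow profiles miss it. Median depth was 4210 UMIs with and 8072 without Foxp3 in the control pool, and 4755 and 3712 in the telmisartan pool. Numbers of cells with a UMI of a gene therefore compare classes of unequal depth. Of 3706 genes with at least 20 UMIs, 154 (4.16%) were at least 2-fold higher with Foxp3 in both pools and 178 (4.8%) at least 2-fold lower.

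Genes known from suppressive, activated regulatory cells were among them. Ikzf2, which encodes the transcription factor Helios, stood at 1373 UMIs per 1000000 (CPM) with and 61.7 CPM without Foxp3 in the control pool. In the telmisartan pool it stood at 1684 and 142 CPM, and over both pools the log2 ratio was 3.91 (3.33 to 4.54). Of the 28 members with Foxp3, 24 also had an Ikzf2 UMI, and 5 control and 4 telmisartan members had Ikzf2 alone. Helios is linked to stable regulatory cells, which restrain neighbours through cytokines among other means. Il10, the gene of a suppressive cytokine (chromosome 1, 131019845 to 131024974), had 18 UMIs with and 1 without Foxp3 in the control pool. It had 30 and 1 in the telmisartan pool, a log2 ratio of 5.44 (3.51 to 8.52), and was seen in 5 of 15 and 6 of 13 members with Foxp3. Lrrc32 and Itgb8, whose products hold and release latent TGF-beta, had log2 ratios of 4.36 (2.69 to 6.70) and 3.71 (2.20 to 5.68).

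Surface and effector genes set the same cells apart. The high-affinity interleukin 2 receptor gene Il2ra had 1546 CPM with and 494 CPM without Foxp3 in the control pool, and 1866 and 359 CPM in the telmisartan pool. Klrg1, a receptor of terminally activated cells, had a UMI in 8 of 15 control and 8 of 13 telmisartan members with Foxp3, but in 1 member without it in each pool. Its log2 ratio was 4.36 (3.16 to 5.85).

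Granzyme B, a protease that regulatory cells can use to kill, followed Foxp3 as well. Gzmb stood at 2630 CPM with and 231 CPM without Foxp3 in the control pool, and at 1292 and 164 CPM in the telmisartan pool, with a log2 ratio of 3.29 (2.86 to 3.74). Other large ratios belonged to Nckap5 (4.94), Frmd5 (4.06), Itgae (3.73) and Sv2c (3.46). Itgae encodes the integrin that ties T cells to epithelium.

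Ifng and Ccl1 were found mainly in members without Foxp3. Ifng (chromosome 10, 118441046 to 118445892), the gene of interferon gamma, had 97 UMIs in 6 control and 143 UMIs in 8 telmisartan members, none of them with Foxp3. A single cell held 88 of the control UMIs and another 108 of the telmisartan UMIs. Among all 66 members, 0 had a UMI of both Ifng and Foxp3 (up to 5.44%, a limit on detection in profiles of this depth and not on expression). The log2 ratio of Ifng was at most -5.16 by its interval, and -5.47 with 3 UMIs in place of 0. The chemokine gene Ccl1 had 389 UMIs without and 7 with Foxp3 in the control pool, and 266 and 0 in the telmisartan pool, a log2 ratio of -5.69 (-7.01 to -4.64). One control cell held 356 of those UMIs. Ccl1 attracts cells with the receptor Ccr8. Ccr8 stood higher with Foxp3, at 159 against 77.1 CPM in the control and 261 against 59.8 CPM in the telmisartan pool. These levels rest on few UMIs, 21 in 12 control and 28 in 13 telmisartan members. In the control pool, more members without Foxp3 than with it had a Ccr8 UMI.

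Several receptors of effector and NK-like cells were also lower with Foxp3. Log2 ratios were -5.30 (-10.62 to -2.77) for the inhibitory receptor gene Klrc1, -4.85 for the granzyme inhibitor gene Serpinb9 and -4.10 for the lysosomal protease gene Ctsw. The interleukin 18 receptor chains Il18rap and Il18r1 had ratios of -3.57 (-6.66 to -1.63) and -3.03 (-4.95 to -1.60). Tbc1d4 (-3.85), Nrgn (at most -3.27 by its interval, -3.61 with 3 UMIs in place of 0) and Fam76b (-3.54) were also among the largest ratios. So was Sirpa (-3.85), a gene of myeloid cells that stood at 297 and 308 CPM in macrophage profiles and at 139 and 59.8 CPM in members without Foxp3. The checkpoint receptor Pdcd1, which marks repeatedly stimulated cells, had a UMI in 3 of 15 and 3 of 13 members with Foxp3 and in 9 of 15 and 13 of 23 without.

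By gene list, the regulatory list had a median log2 ratio of 1.59 over 26 tested genes (15 called higher, 1 lower), against 0.01 for all genes tested. The Th1 and effector list had -1.29 over 15 genes (1 higher, 6 lower) and the cytotoxic list -2.02 over 7 (1 higher, 3 lower). GIMAP genes, which support lymphocyte survival, had 1.08 over 8 genes (3 higher, none lower), and interferon stimulated genes 1.06 over 12 (3 higher, none lower). The NF-kB and TNF receptor list had 0.17 over 12 genes (5 higher, none lower). Macrophage genes also differed along this line, with a median of -1.78 over 11 genes of the macrophage list (none higher, 6 lower). That list summed to 4176 and 2532 CPM with Foxp3 and to 10631 and 6500 CPM without. Its part in the other ratios was not tested. The B cell list, led by Ighm, summed to 303 and 326 CPM with Foxp3 and to 15.4 and 37.4 CPM without. Ighm had a log2 ratio of 3.36 (2.09 to 4.90), and the part of B cell RNA was not tested either. The summed regulatory list reached 17368 and 16379 CPM with Foxp3 and 5022 and 5469 CPM without, with Icos the most abundant gene. Members were split by Foxp3, so its own 83 control and 59 telmisartan UMIs fall on 1 side by construction. The list sums with Foxp3 were 1202 and 1255 UMIs.

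CD8 T cells from the same tumors share the T cell receptor complex and the same tissue, and they are the nearest cells to set beside the members. CD4 cells read antigen on class II molecules and mainly signal, while CD8 cells read class I and mainly kill. Of 6176 genes tested, 154 (2.49%) were at least 2-fold higher in CD4 members in both pools and 185 (3%) at least 2-fold lower. By the rule, a Foxp3 UMI admits a T cell to the members and bars it from the CD8 class. Ratios of genes that accompany Foxp3, such as Ikzf2 and others of the regulatory list, were therefore set in part by the rule.

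Izumo1r, which encodes folate receptor 4 of regulatory and memory CD4 cells, had the largest ratio. It had 33 UMIs in control and 17 in telmisartan members, against 1 and 0 in CD8 T cells, a log2 ratio of 5.87 (3.32 to 11.20). Ikzf2 stood at 518 and 703 CPM in members and at 19.8 and 46.0 CPM in CD8 T cells, with a ratio of 4.02 (3.33 to 4.80). Further genes higher in members were Frmd5 (5.58), Lgals7 (5.35, with 16 of 20 and 13 of 15 UMIs in 1 cell of each pool), the receptor adaptor gene Trat1 (4.87), Sh3rf1 (4.62), Cep112 (4.62), Ighm (4.54), Nckap5 (4.39) and Smco4 (4.13). The costimulatory receptor OX40 showed the contrast in cell numbers. Its gene Tnfrsf4 had a UMI in 27 of 30 and 30 of 36 members, and in 1 of 33 and 19 of 71 CD8 T cells, with a ratio of 2.91 (2.43 to 3.41). Maf, a transcription factor of cells that make interleukin 10, had a ratio of 3.01 (2.63 to 3.41).

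Killing genes pointed the other way. Gzma, the granzyme A gene, had 40 and 69 UMIs in CD8 T cells and 0 and 1 in members, a log2 ratio of -6.55 (-11.86 to -4.04). Perforin, the pore through which granzymes enter, followed, and Prf1 had a ratio of -4.08 (-5.74 to -2.81). Gzmk had -5.27, Ly6c2 -4.44 and the chemokine gene Xcl1 -4.17. The rest of the largest ratios were Mmp8 (-3.99), Gpnmb (-3.78), Jag1 (-3.68), Spry2 (-3.64) and Klre1 (-3.58). Macrophage genes differed in this comparison too. Their list summed to 8384 CPM in members and 8010 CPM in CD8 T cells of the control pool, and to 5055 and 11292 CPM in the telmisartan pool, with a median of -0.44 over 13 genes (none higher, 1 lower). In macrophage profiles Mmp8 stood at 28.9 and 36.7 CPM, Gpnmb at 16.3 and 28.1, Jag1 at 43.9 and 53.7 and Spry2 at 22.5 and 28.7, and the part of macrophage RNA was not tested. Gzmb differed between pools, at 1066 CPM in members and 904 CPM in CD8 T cells of the control pool, and at 575 and 1233 CPM in the telmisartan pool. The cytotoxic list had a median of -2.05 over 14 genes (9 lower, and Gzme alone higher, with all its UMIs in 1 member of each pool), the regulatory list 1.64 over 28 (14 higher, none lower) and all genes tested 0.05. The regulatory list summed to 5022 and 5469 CPM in control and telmisartan members without Foxp3. In CD8 T cells it summed to 3622 and 4562 CPM.

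**Figure D2:**
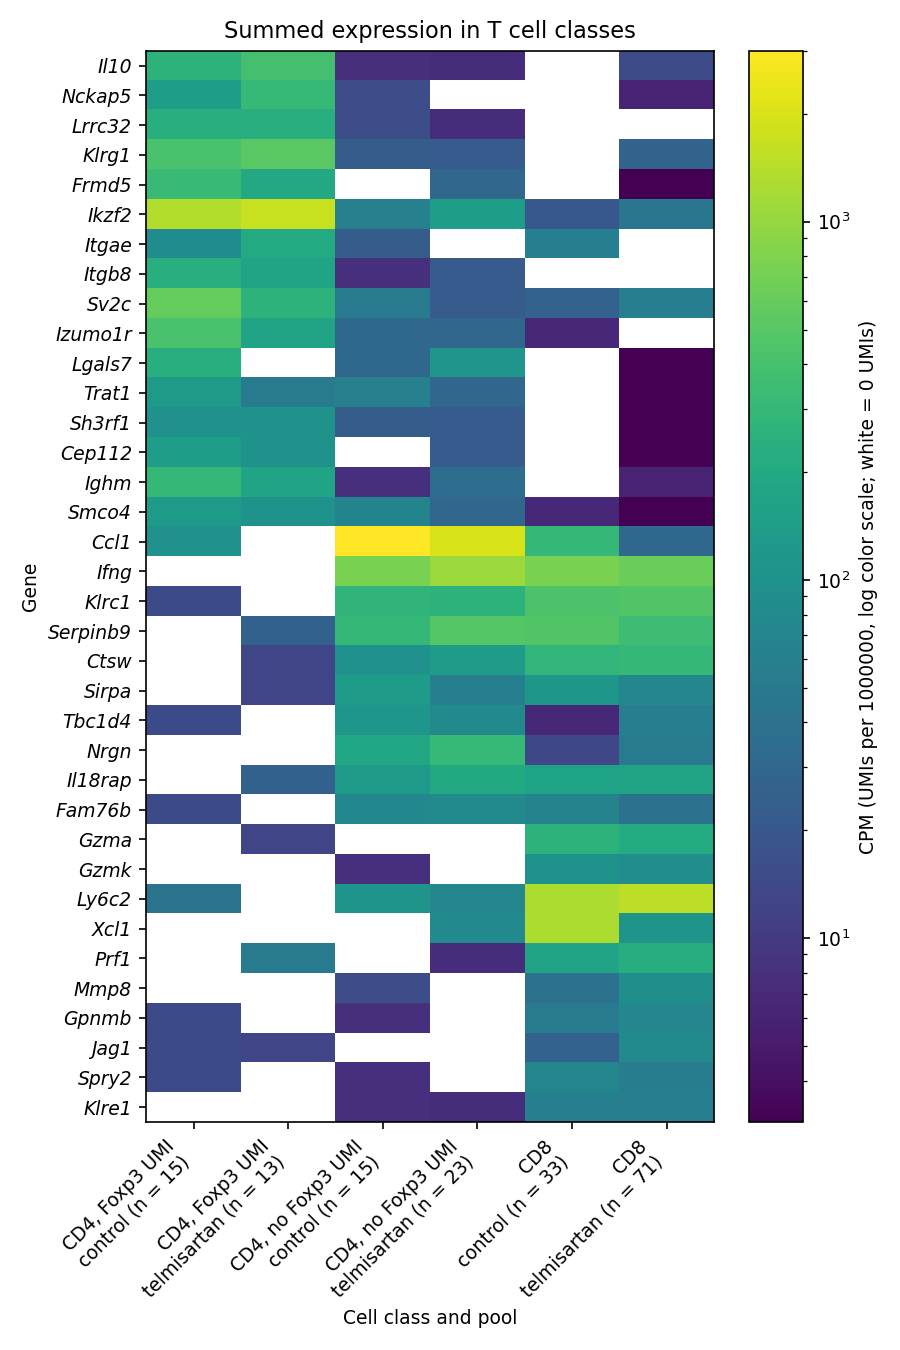
Summed expression, in CPM on a log color scale, of genes among the 10 largest ratios each way, with against without Foxp3 and CD4 against CD8 (1 gene is not shown), in 3 T cell classes of 1 control and 1 telmisartan pool (columns, with cell numbers). Genes were chosen by their ratio; Il10 is seen mainly with Foxp3, Ifng and Ccl1 without it, and Gzma in CD8 T cells.

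The drug comparison sets the 36 telmisartan members against the 30 control members. Telmisartan blocks the angiotensin receptor and also binds the nuclear receptor PPAR gamma. Transcripts of the angiotensin receptors Agtr1a, Agtr1b and Agtr2 had 0 UMIs in members of both pools, as did Agt, Ace, Mas1 and Ppara. Pparg, the gene of PPAR gamma, had 4 UMIs in control and 3 in telmisartan members. Of 3706 genes tested, 206 (5.56%) were at least 2-fold higher in the telmisartan pool and 200 (5.4%) at least 2-fold lower. Intervals excluded a ratio of 1 for 129 and 125 of them, and lay wholly beyond 2-fold for 9 and 13. Over all 3706 genes tested, intervals excluded a ratio of 1 for 462 and lay wholly beyond 2-fold for 22. These intervals treat UMIs of 1 cell as independent counts, so the numbers are not a count of tested differences.

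Penk had the largest ratio. It encodes proenkephalin, the precursor of opioid peptides, and lies on chromosome 4 (4133531 to 4138819). Its level was 45.3 CPM in control and 774 CPM in telmisartan members, a log2 ratio of 4.10 (3.14 to 5.25). Penk had a UMI in 2 of 30 control and 10 of 36 telmisartan members, 1 and 2 of them with Foxp3. The largest part from 1 cell was 8 of 9 UMIs in the control and 48 of 163 in the telmisartan pool. In CD8 T cells it had a UMI in 1 of 33 and 0 of 71 (up to 5.06% with a detected UMI), and in macrophage profiles in 0.404% and 0.437%.

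Other large ratios rested on few UMIs in the control pool. Tapbpl, which edits peptides on class I molecules, had 6 UMIs in 4 control and 35 UMIs in 14 telmisartan members, a ratio of 2.46 (1.20 to 4.0). Abcf2, Epc1, Idnk and Xaf1 each had 3 UMIs in control and 17 in telmisartan members, a ratio of 2.42 (0.63 to 4.83). For 4 further genes a single cell held most UMIs, namely 33 of 34 for Ccl17, 51 of 67 for Serpinb9b, 16 of 22 for Dapk1 and 12 of 21 for Mkl1. Their log2 ratios were 4.01, 2.98, 2.79 and 2.31.

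The largest ratios in the other direction were mostly chemokines and receptors that macrophages also make. Ccl12 had 62 UMIs in control and 2 in telmisartan members, a ratio of -5.04 (-8.11 to -3.12), with 38 of the control UMIs in 1 cell. Ccl7 had -3.75, C3ar1 -3.73 and Ccl2 -2.96. In macrophage profiles Ccl2 stood at 1260 CPM in the control pool and 1376 in the telmisartan pool, and Ccl12 at 590 and 476 CPM. Without the members whose macrophage list share was above 0.5%, a limit chosen after the data were seen, the Ccl2 ratio was 0.75 and the Cxcl10 ratio 2.16, against -2.96 and -2.80 with all members. A single cell held 109 of 171 control UMIs of Cxcl10, 29 of 32 of Ccl24, 19 of 22 of Ifit2 and 19 of 24 of Cdk1. By its interval the ratio was at most -3.11 for Ccl24, and it was -3.50 with 3 UMIs in place of 0. It was -3.54 (-6.67 to -1.52) for Ifit2 and -2.67 (-4.65 to -1.13) for Cdk1. Dynlt3, a dynein light chain gene, was spread over 11 control and 3 telmisartan members, with 18 and 3 UMIs and a ratio of -2.67 (-5.07 to -0.89).

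**Figure D3:**
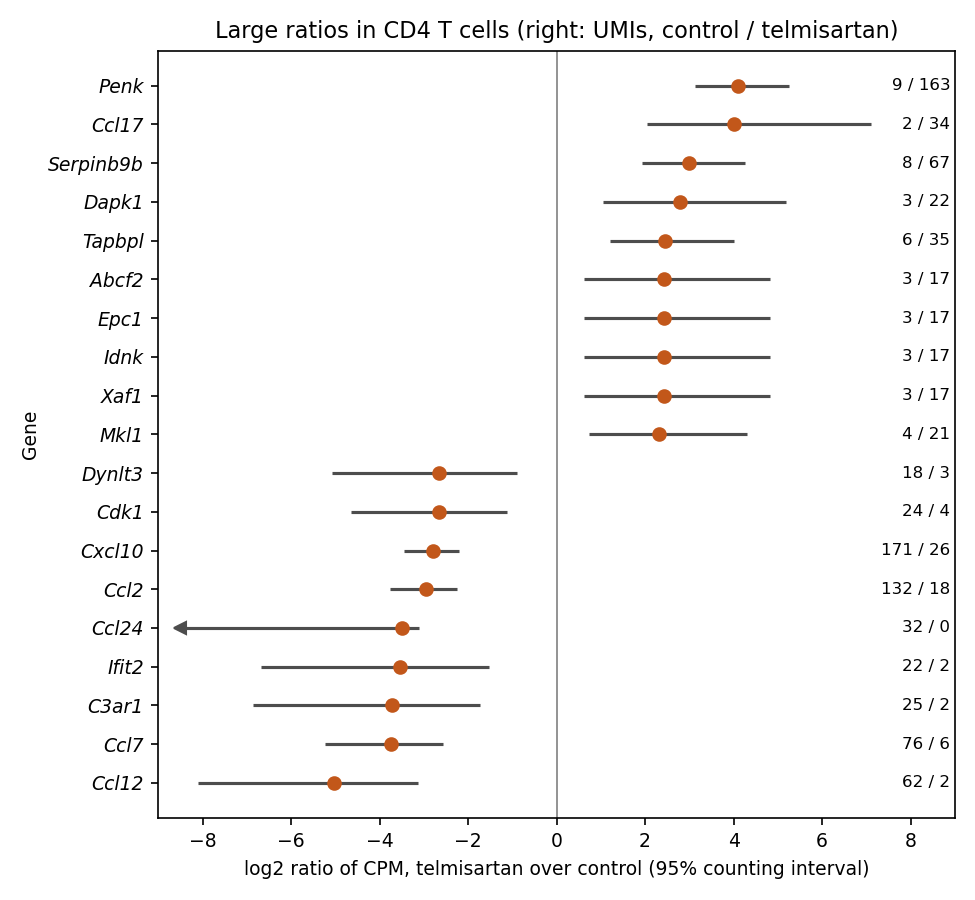
Log2 ratio of CPM, telmisartan over control, for genes among the 10 largest ratios in each direction in CD4 T cells of 1 pool each (1 gene is not shown). Points are ratios, bars exact 95% intervals for counting error, and an arrow marks an interval with no lower end; Penk reached 4.10 and Ccl12 -5.04.

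Among list genes picked here for the size of their ratio, several answer T cell receptor signals or restrain them. By list, T cell receptor signalling had 1 of 21 genes called higher and 2 lower, and early response 1 of 11 higher and 1 lower. The checkpoint and chronic stimulation list had 3 of 12 higher and none lower. Its sum was 3179 CPM in control and 3834 CPM in telmisartan members. The same sum was 2831 and 3682 CPM in CD8 T cells and 1064 and 1618 CPM in macrophage profiles. The NF-kB and TNF receptor list had 2 of 12 higher and none lower. Over all genes tested, 5.56% were called higher and 5.4% lower. Nr4a3, an orphan receptor gene switched on by receptor signals (chromosome 4, 48045153 to 48086447), stood at 156 CPM in control and 447 CPM in telmisartan members, a ratio of 1.52 (0.92 to 2.15). It had a UMI in 6 of 30 and 22 of 36 members. The difference was not confined to members, since Nr4a3 was found in 12 of 33 and 45 of 71 CD8 T cells and in 34.1% and 57.0% of macrophage profiles. Its relative Nr4a2 had a ratio of 1.23 (0.54 to 1.96) and Nr4a1 of 0.43 (0.09 to 0.78). Tnfaip3, whose product A20 limits NF-kB signals, stood at 332 and 893 CPM, a ratio of 1.43 (1.02 to 1.86). Traf1 had 1.19 (0.59 to 1.81), Fosb 1.34 (0.93 to 1.77) and the receptor brake Cd5 1.12 (0.57 to 1.71). Fos was lower, at 570 CPM in telmisartan against 1464 CPM in control members, a ratio of -1.36 (-1.68 to -1.05). Of its 120 telmisartan UMIs, 78 came from 1 cell. Cd69, Egr2 and Dusp1 were also lower, each by less than 2-fold. They had 58, 21 and 178 UMIs in control and 41, 15 and 142 in telmisartan members.

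Receptor and effector genes of the lists went in both directions. Il21r, the receptor for a helper cytokine, had a UMI in 4 of 30 control and 16 of 36 telmisartan members, a ratio of 1.78 (0.61 to 3.12). The trafficking receptor genes Ccr7 and Cxcr4 had ratios of 2.12 (0.69 to 3.87) and 1.10 (0.41 to 1.83), and the chromatin organizer Satb1 1.16 (0.41 to 1.95). Without the cell with most UMIs in each pool, the Cxcr4 ratio was 0.58 (-0.24 to 1.43). Gzmb was lower in telmisartan members, at 575 against 1066 CPM, a ratio of -0.89 (-1.23 to -0.56). Izumo1r had -1.04 (-1.98 to -0.15) and the costimulatory receptor Cd226 -1.5 (-2.79 to -0.34), but without such cells they had -0.74 (-1.91 to 0.38) and -1.36 (-3.01 to 0.09). Genes of regulatory cells had ratios of 0.08 (-0.23 to 0.38) for Il2ra, -0.03 (-0.31 to 0.26) for Ctla4 and 0.44 (0.07 to 0.82) for Ikzf2. Foxp3, a gene of the rule, stood at 417 CPM in control and 280 CPM in telmisartan members, a ratio of -0.57 (-1.08 to -0.08), or -0.41 (-0.99 to 0.17) without the top cell of each pool. Ccl1 was lower at 1264 against 1992 CPM, but without the cell with most UMIs in each pool its ratio was 1.63.

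Lists of genes fixed for CD4 T cell programs were compared by their medians, beside 0.00 for all 3706 genes tested. The NF-kB and TNF receptor list had a median of 0.55 over 12 genes (2 called higher, none lower), and its sum was 3616 CPM in control and 5169 CPM in telmisartan members. The difference was not confined to members. This list summed to 2197 CPM in control and 3431 CPM in telmisartan CD8 T cells, and to 1037 and 1435 CPM in macrophage profiles. The Th1 and effector list had 0.39 over 15 genes (none higher, 1 lower), with a sum of 3561 and 4523 CPM led by Bhlhe40. The regulatory list had 0.09 over 26 genes (none higher, 1 lower), and its sum was 9319 and 9441 CPM.

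The control sum of cell division genes came largely from 1 cell. The mitosis list had a median of -1.38 over 5 genes (none higher, 4 lower), and 5 members of each pool held at least 5 UMIs of it. A single cell held 190 of its 273 control UMIs, and another 54 of its 138 telmisartan UMIs. Without these cells the sums were 481 and 417 CPM, a log2 ratio of -0.20 (-0.66 to 0.25). The S phase list had -0.13 over 12 genes. Among lists of signalling, medians were 0.48 over 6 chemokine and egress receptors, 0.18 over 12 checkpoint genes, 0.18 over 6 TGF-beta genes, 0.13 over 12 interferon stimulated genes, 0.13 over 11 early response genes, 0.11 over 21 T cell receptor signalling genes, 0.10 over 10 heat shock genes and 0.08 over 16 cytokine receptors. At a mitochondrial limit of 10% the interferon median was -0.53 and the early response median -1.05, and with 0 C1q UMIs allowed the heat shock median was -0.36. Medians of the chemokine receptor, TGF-beta, cytokine receptor, regulatory, GIMAP, naive and subcluster label lists also had the other sign under at least 1 alternative. The cytotoxic list had a median of 0.18 over 7 genes, or 1.40 with cells weighted alike, while its sum was lower in the telmisartan pool at 1235 against 1559 CPM, a ratio of -0.34 (-0.58 to -0.09). The naive and central memory list had -0.02 over 5 genes, the genes that label the study's CD4 subclusters -0.17 over 5 and the GIMAP list -0.24 over 8.

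Lists for other helper fates and cell types had few tested genes. Medians were -0.67 over 2 follicular helper genes, -0.54 over 2 genes of telmisartan targets and the angiotensin system, 0.61 over 4 dendritic cell genes, 0.41 for 1 Th2 gene, -0.59 for 1 NK cell gene and -0.37 for 1 B cell gene. The Th17, gamma-delta T cell, CD8 T cell, neutrophil and tumor epithelial lists had no gene with enough UMIs. The Th2 and Th17 cytokine genes counted had few UMIs, with 0 of Il4, Il17f and Il22 in members. Il13 had 16 UMIs in 1 control cell and 3 UMIs in the telmisartan pool, and Il5 had 3 UMIs in 1 control cell. Such counts limit detection at this depth and not expression.

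**Figure D4:**
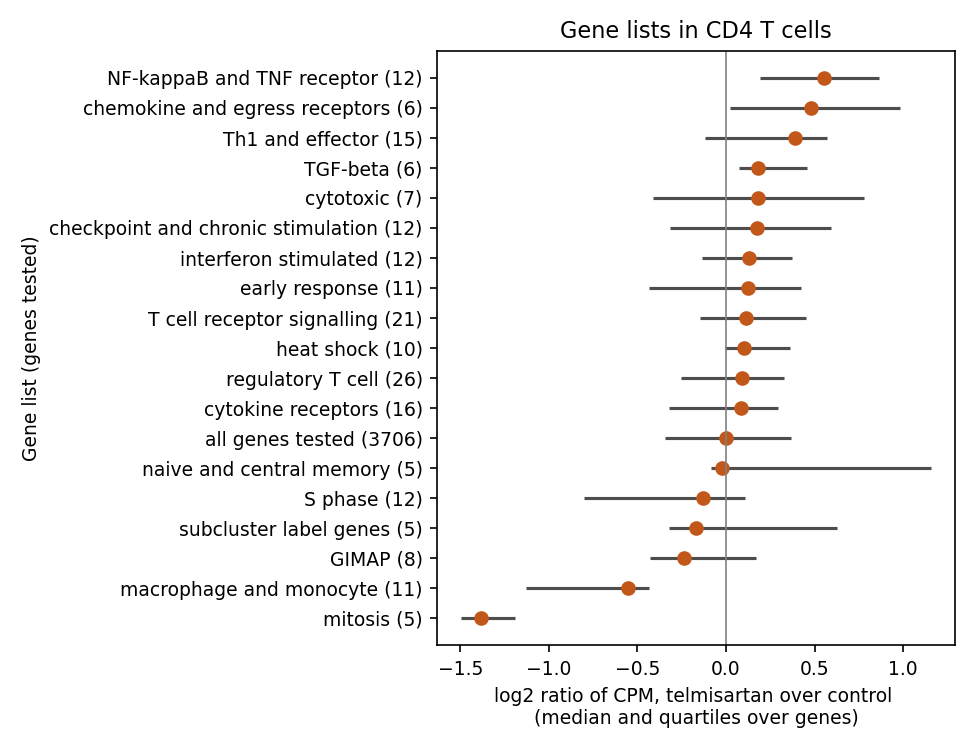
Median log2 ratio of CPM, telmisartan over control, for gene lists with at least 5 tested genes (number in brackets) in CD4 T cells of 1 pool each. Points are medians and bars quartiles over genes; the NF-kB and TNF receptor list had 0.55, the mitosis list -1.38 and all genes tested 0.00.

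The study labels its CD4 subclusters by genes that can be counted in single members. Any of Wisp1, Ccl1 or Penk had a UMI in 9 of 30 control members (30%, 14.7 to 49.4%) and 18 of 36 telmisartan members (50%, 32.9 to 67.1%). Of these 27 members, 22 had no Foxp3 UMI, against 38 of all 66 members. The labels come from subclusters of these same data, so this split is a description and not independent support. Penk had a log2 ratio of -0.39 (-0.89 to 0.09) with against without Foxp3, and 1 cell held 48 of its 51 UMIs found with Foxp3. Any of Foxp3, Il10 or Itgb8 had a UMI in 17 control and 15 telmisartan members, 4 of them without Foxp3. Wisp1, a secreted matrix protein gene, had a UMI in 6 and 5 members and in 0 of 104 CD8 T cells.

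Macrophages outnumber T cells in these tumors, and genes they express strongly also had UMIs in members. All 16 genes of the macrophage and monocyte list had a UMI in members of each pool, none of its defining markers was at 0, and Lyz2 was the most abundant. The list summed to 8384 CPM in control and 5055 CPM in telmisartan members, against 27622 and 30220 CPM in the macrophage profiles, and its median ratio was -0.55 over 11 genes (none higher, 4 lower). Lyz2 had 724 UMIs in 24 of 30 control members and 523 UMIs in 24 of 36 telmisartan members. The list held more than 0.5% of UMIs in 10 control and 6 telmisartan members, and in the others it summed to 1744 and 1665 CPM. Of the genes called lower in the telmisartan pool, 96 of 200 (48.0%) were higher in macrophage profiles than in members, against 48 of 206 (23.3%) called higher and 1098 of 3706 (29.6%) tested. RNA of macrophages from doublets or free RNA cannot be told apart here from transcripts of the members, and their part was not tested.

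The macrophage profiles were chosen to have 0 UMIs of the T cell receptor complex genes, so profiles with T cell RNA were largely removed from them in advance. Among them, Foxp3 had a UMI in 4 of 2475 control macrophage profiles (0.162%) and 8 of 2061 telmisartan ones (0.388%), at median depths of 11103 and 8606 UMIs. Cd4 had one in 8 of each (0.323% and 0.388%). Near the limits, 1 member in each pool had just 2 T cell UMIs, 3 control and 6 telmisartan members rested on 1 UMI of Cd4 or Foxp3, and 2 members in each pool had 5 to 9 C1q UMIs. Beyond the C1q limit lay 16 control and 12 telmisartan profiles that met the other conditions, 11 and 7 of them with Foxp3.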

How the data were processed

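The deposited values are counts: the authors gave UMIs per gene and cell and Sample Tag reads per cell from the BD Rhapsody WTA Analysis Pipeline 1.11 (GRCm38, GENCODE M19), per the file headers and labels. Cells were kept with at least 10 tag reads, 75% on 1 tag, 150 to 5000 genes and at most 20% mitochondrial UMIs. Members and gene lists were chosen with earlier results of these data known. All cells came from 1 capture; its gene and Sample Tag libraries share cell barcodes by design, and there was no second capture. No doublet caller was run; cells with split tags were removed, the C1q limit was set against T cell and macrophage doublets, and alternatives left out cells by macrophage list share.

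UMIs were summed over cells per pool and divided by all UMIs (CPM). Genes with at least 20 UMIs in the cells compared were tested for size; "called" means at least 2-fold, in both pools for comparisons within pools. Where a sum was 0, a ratio used 3 UMIs in its place, and the bound is the closed end of its interval. Interval code was tested on simulated data. Genes were named if in a list, among the 10 largest ratios each way (rule genes, mitochondrial, ribosomal protein and receptor segment genes left out), or among the 15 with most UMIs. The Foxp3 share after thinning is the exact expected value; it replaced a single random draw after draws were seen to differ. Positions are from GENCODE M21 by symbol. Tools were Python 3.11.15, numpy 2.4.6, scipy 1.17.1, pandas 2.3.3, matplotlib 3.10.9, R 4.3.3 and, for TMM factors, edgeR 4.0.16.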

Additional observations from a re-analysis of the deposited data

Results flagged for a closer look

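Cells outside the comparisons also met the rule for CD4 T cells. Among 941 cells whose tag reads were split between tags, 9 (0.956%, 0.438 to 1.81%) did, 7 of them with a Foxp3 UMI, which is more than the 3 cells that a count of 0 allows. Among 122 cells under 10 tag reads, 3 (2.46%, 0.510 to 7.02%) did, which is not. That limit takes no account of the number of cells examined. Kept cells met the rule at 0.591% in the control and 0.745% in the telmisartan pool, inside both of these intervals. Among telmisartan cells over the mitochondrial limit, 7 of 5373 (0.130%, 0.0524 to 0.268%) did, 5 with Foxp3, against 3 of 3586 control cells (0.0837%, 0.0173 to 0.244%), none with Foxp3. Neither difference was tested, and these cells were not used here.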

How the results depend on the processing

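Of 866 ratios of named genes under alternative settings, 864 kept their direction, and 61 of these lay outside the main ratio's interval. Some settings left the cells unchanged and so could not test a ratio. A limit of at least 500 genes kept all 30 and 36 members and all 33 and 71 CD8 T cells. A macrophage list share of at most 5% kept all 30 and 36 members. Genes were also named largely for the size of their main ratio, so the 864 says little about smaller ratios. Ratios with both groups at or under 3 UMIs are not given, a rule applied after a first run without it had shown 6 reversed. The 2 that reversed did so when members with a macrophage list share above 0.5% were left out, a setting chosen after the data were seen: Ccl2 at 0.75 (main -2.96) and Cxcl10 at 2.16 (main -2.80). The cause was not tested. The median over all genes moved little in all 15 settings. Of 231 list medians, 224 stayed inside the 95% order interval of the main median, and 51 of 56 shares inside the main share's interval.

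With 0 C1q UMIs allowed, CD4 shares were 0.276% and 0.331%, telmisartan calls 95 higher and 103 lower, CD8 calls 108 lower and Foxp3 calls 84 higher and 60 lower, with 1291 genes tested in place of 3706 for the telmisartan and Foxp3 comparisons; list medians were 0.55 (T cell receptor signalling), -0.36 (heat shock), 0.92 (NF-kB) and -2.21 (macrophage). At a macrophage share of at most 0.5%, the control CD4 share was 0.394%, telmisartan calls 120 lower, Foxp3 calls 110 lower and the heat shock median -0.087. At a mitochondrial limit of 10%, the interferon median was -0.53 and the early response median -1.05.

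Thinned to 500 UMIs (1 seeded draw for gene sums), Foxp3 shares were 21.1% and 12.9%, telmisartan calls 17 higher and 13 lower, CD8 calls 26 and 25, and Foxp3 calls 4 and 11. With cells weighted alike, telmisartan calls were 318 and 332 and CD8 calls 271 higher. TMM factors gave 101 Foxp3 calls higher. At 50 UMIs or more, calls were 46 and 33 (telmisartan), 61 and 65 (CD8) and 56 and 73 (Foxp3). At 10 UMIs or more they were 552 and 525 (telmisartan), 234 higher (CD8) and 286 higher (Foxp3). No paired analysis was possible because each group is 1 pool. Depth limits detection of genes in single members.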
